A study of Mus musculus with 2 samples.

Results

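The C-type lectin receptors of myeloid cells were followed through neutrophils, monocytes and B cells of mouse spleen. The set was defined by name as 10 genes: Clec4d, Clec4e, Clec4n, Clec4a1, Clec4a2, Clec4a3, Clec4b2, Clec5a, Clec7a and Clec12a. Of these, 9 had a row among the 27998 genes of both expression matrices, and Clec7a, which encodes the β-glucan receptor Dectin-1, was not analysed here. Cells sorted as CD11b+ Gr1+ were profiled by droplet 3′ single-cell RNA sequencing, in which each captured transcript is counted once through its unique molecular identifier (UMI). The PyMT library came from the spleens of 3 pooled mice with tumours, whose strain the labels give only as PYMT; in the common model of that name the polyoma middle T oncogene is driven in mammary epithelium. The WT library came from the spleens of 5 pooled control mice of strain FVB/n. No drug treatment is listed for either group, and the animals' ages are not given in the sources used here. Each group was 1 library of pooled animals, so no test between the conditions was possible, differences have no replicate check, and the 95% intervals given throughout cover counting error only.

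C-type lectin receptors bind sugars, lipids and products of dying cells. Mincle (Clec4e), MCL (Clec4d) and Dectin-2 (Clec4n) pair with the adaptor FcRγ (Fcer1g), and MDL-1 (Clec5a) pairs with DAP12 (Tyrobp) and DAP10 (Hcst); their tyrosine motifs are phosphorylated by Src-family kinases and recruit Syk, which signals through PKCδ and the CARD9, BCL10 and MALT1 complex to NF-κB. DCIR (Clec4a2) and MICL (Clec12a) instead carry an inhibitory motif that recruits the phosphatases SHP-1 and SHP-2. Neutrophils and monocytes are the main carriers of these receptors in blood and spleen, and they use them to sense fungi, mycobacteria and damaged tissue.

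All 10 genes lie on mouse chromosome 6 (GENCODE release M21, GRCm38). The Clec4 genes form 1 cluster, with Clec4a1 at chr6:122921848-122934619, Clec4a3 at chr6:122952515-122969875, Clec4a2 at chr6:123106428-123143999, Clec4b2 at chr6:123172893-123204671, Clec4n at chr6:123229843-123247021 and Clec4d at chr6:123262111-123275265, all on the plus strand. Clec4e at chr6:123281789-123289870 is on the minus strand, so that it and Clec4d end 6.524 kb apart and point towards each other. Clec5a lies apart at chr6:40574894-40585821 on the minus strand, and Clec12a at chr6:129342691-129365303 on the plus strand. A 3′ count can be split between close relatives. Clec4a1 and Clec4a3, the most alike in distribution, shared 76.4% identity over 368 aligned bases of their last 500 transcript bases, with a longest shared run of 11 bases. The pair Clec4b2 and Clec4a3 shared 77.3% over 459 aligned bases, with the longest shared run in the set, 23 bases.

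RefSeq promoter windows on GRCm38.p6 (250 bases before and 50 after a start site) were found for 9 of the 10 genes, none of them for Clec4n. The 5 windows below belong to Clec4d and Clec4e, both highest in neutrophils with little Camp, to Clec4a1 and Clec4a3, the pair most alike in distribution, and to Clec12a, whose level was lower in neutrophils with less Camp. Capitals mark matches on either strand to the PU.1 core GAGGAA, or as its reverse complement TTCCTC, to the AP-1 site TGANTCA and to the C/EBP palindrome TTGCGCAA.
Clec4d, chr6:123261857-123262156, plus strand: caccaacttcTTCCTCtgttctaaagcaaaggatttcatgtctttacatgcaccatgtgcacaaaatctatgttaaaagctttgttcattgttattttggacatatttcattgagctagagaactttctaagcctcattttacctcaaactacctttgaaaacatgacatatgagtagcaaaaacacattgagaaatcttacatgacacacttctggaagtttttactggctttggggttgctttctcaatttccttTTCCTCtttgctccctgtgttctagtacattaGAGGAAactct
Clec4e, chr6:123289822-123290121, minus strand: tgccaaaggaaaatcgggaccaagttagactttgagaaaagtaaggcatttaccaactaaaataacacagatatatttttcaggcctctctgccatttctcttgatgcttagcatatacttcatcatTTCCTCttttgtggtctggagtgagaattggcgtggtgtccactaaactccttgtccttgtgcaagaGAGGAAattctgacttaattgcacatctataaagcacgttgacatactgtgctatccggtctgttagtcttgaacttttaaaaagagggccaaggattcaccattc
Clec4a1, chr6:122921598-122921897, plus strand: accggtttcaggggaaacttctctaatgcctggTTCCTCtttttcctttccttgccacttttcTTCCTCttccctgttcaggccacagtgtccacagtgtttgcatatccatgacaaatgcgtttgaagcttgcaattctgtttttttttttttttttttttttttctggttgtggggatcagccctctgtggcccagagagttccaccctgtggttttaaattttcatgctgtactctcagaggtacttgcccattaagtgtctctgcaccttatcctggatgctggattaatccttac
Clec4a3, chr6:122952394-122952693, plus strand: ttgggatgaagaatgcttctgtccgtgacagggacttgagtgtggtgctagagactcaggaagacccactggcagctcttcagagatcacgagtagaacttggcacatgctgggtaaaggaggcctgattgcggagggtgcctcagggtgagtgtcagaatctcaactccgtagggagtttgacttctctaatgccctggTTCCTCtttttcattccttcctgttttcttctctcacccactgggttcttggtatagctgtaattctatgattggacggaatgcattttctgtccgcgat
Clec12a, chr6:129349994-129350293, plus strand: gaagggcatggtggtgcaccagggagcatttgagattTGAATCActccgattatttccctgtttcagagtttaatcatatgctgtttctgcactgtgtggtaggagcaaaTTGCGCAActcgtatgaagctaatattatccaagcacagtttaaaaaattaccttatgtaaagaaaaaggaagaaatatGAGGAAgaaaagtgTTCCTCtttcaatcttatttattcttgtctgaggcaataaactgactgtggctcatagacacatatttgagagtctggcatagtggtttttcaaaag
The PU.1 core was found in at least 1 window of 8 of the 9 genes, all but Clec4a2, and in 28.3% of 32851 promoters of the same length. That share counts single windows, while the 9 genes had 11 windows in all. Another Clec4a3 window, chr6:122952265-122952564, is not printed and held no PU.1 core. In Clec4d the matches start at bases -240, 8 and 40 from the start site, and in Clec4e at -123 and -56. Clec12a alone among these genes holds the C/EBP palindrome, at -140, which 0.183% of all promoters hold. AP-1 sites were in the windows of Clec12a (-213) and Clec4a2 (32), against 7.81% of all promoters, and the NF-κB site was in none, against 0.411% of all promoters. No match overlapped another. The printed windows of Clec4a1 and Clec4a3 aligned at 83.8% identity over 99 bases, with a shared run of 17 bases that holds the PU.1 core in both. A match is a run of letters, and binding was not measured.

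The PyMT library held 9155 cells with 73435307 UMIs (median 7063 per cell), and the WT library held 5491 cells with 42542700 UMIs (median 5668). A cell was called a neutrophil when S100a8 and S100a9 made up at least 10% of its UMIs with fewer than 2 UMIs of Cd79a and Cd79b, a monocyte when they made up under 5% with at least 2 UMIs of Csf1r and Ccr2, and a B cell when they made up under 5% with at least 3 UMIs of Cd79a and Cd79b. This gave 5489 neutrophils, 1526 monocytes and 1081 B cells in PyMT, against 3980, 530 and 304 in WT. All 10 neutrophil markers were detected in neutrophils, all 10 monocyte markers in monocytes and all 7 B cell markers in B cells of both libraries. Each list was also detected in full in the other classes, and holds genes that define its class. Detection therefore does not separate the classes. The sort was on CD11b and Gr1, so the class shares are shares of that gate. Neutrophils were further divided by Camp, the cathelicidin gene, which is made while granules form and is low in mature cells. Cells with Camp at 4% or more of their UMIs, at 1 to 4% and under 1% made up 29.5%, 33.0% and 37.5% of PyMT neutrophils, against 86.8%, 11.8% and 1.41% of WT neutrophils. The WT group under 1% held only 56 cells. Of the cell barcodes, 72 occurred in both libraries.

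Clec4d and Clec4e were the genes of the set at least 1.5-fold higher in PyMT neutrophils when scaled to class totals. Levels are given as CPM, the UMIs of a gene summed over the cells of a class and scaled to all UMIs of those cells. Clec4d reached 81.1 CPM in PyMT neutrophils (95% interval 78.6 to 83.7, 3919 UMIs), against 15.6 CPM in WT neutrophils (14.2 to 17.0, 473 UMIs), a log2 ratio of 2.38 (2.24 to 2.52). Clec4e reached 174 CPM in PyMT neutrophils, against 60.6 CPM in WT neutrophils, a log2 ratio of 1.52 (1.45 to 1.59). Of the 9 receptors, these 2 were at least 1.5-fold higher and 3 (Clec4a1, Clec4a3 and Clec4b2) at least 1.5-fold lower in PyMT neutrophils. Among all 9927 genes with at least 50 UMIs in the 2 sums, 7.11% were that much higher and 42.6% that much lower. The median of all those genes lay at -0.47, and that of the receptors at -0.20. Other scalings move every neutrophil ratio up together, by 0.45 with trimmed means and 0.44 with the median of ratios, and change the sign of small negative ones. With trimmed means 16.7% of all genes were higher and 18.3% lower, and 3 receptors were higher (Clec4n as the third) and 1 lower (Clec4b2).

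Within each library, both genes were much higher in the neutrophils with little Camp. Clec4d stood at 289 CPM in PyMT cells with Camp under 1% and 16.0 CPM in those at 4% or more, an 18.1-fold difference. In WT the same 2 levels were 239 CPM (55 UMIs) and 10.5 CPM, a 22.7-fold difference. The Clec4d levels at 4% or more lay under the 26.0 CPM of PyMT and 19.9 CPM of WT B cells, so neither fold is read as a size. Clec4e differed 6.94-fold in PyMT (455 against 65.5 CPM) and 4.23-fold in WT (222 against 52.4 CPM). Among all receptors compared this way, 5 of 8 were at least 1.5-fold higher and 2 lower in PyMT cells with Camp under 1%, where 26.7% of all genes were higher and 20.7% lower. In WT, 5 of 9 were higher and 1 lower, where 25.6% of all genes were higher and 16.2% lower. These counts include small levels. In PyMT, the levels of Clec4d, Clec4n, Clec4a1 and Clec4a3 at 4% or more lay under those of PyMT B cells. In WT, Clec4n, Clec4a1 and Clec4a3 had only 6, 13 and 10 UMIs in cells with Camp under 1%. With trimmed means, 21.2% of all genes in PyMT and 17.1% in WT were higher and 28.2% and 23.8% lower, with 5 receptors higher and 3 lower in PyMT and 4 and 1 in WT. Leaving aside the neutrophils with a Csf1r or Ccr2 UMI, described below, 3 receptors in place of 6 differed in WT.

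The neutrophils were also divided into finer steps of Camp, chosen after the values were seen. In PyMT, Clec4d was 13.1 CPM at 6 to 8% Camp, 16.3 at 4 to 6%, 32.7 at 2 to 4%, 60.9 at 1 to 2%, 99.5 at 0.5 to 1%, 232 at 0.25 to 0.5% and 369 below 0.25%. In WT the same steps gave 7.10, 23.8, 36.6, 76.4, 142, 430.4 and 239.8 CPM, the last from 12 cells and 17 UMIs. On the CPM scale Clec4d was thus lower in PyMT than in WT at 5 consecutive steps between 0.25% and 6%, while pooled neutrophils showed the opposite order. Intervals overlapped at the 3 steps from 0.5% to 4%. At 4 to 6% the PyMT level lay under the 26.0 CPM of PyMT B cells. The WT level there overlapped that of WT B cells, 19.9 CPM. Trimmed means raised the log2 ratios of the 3 Camp levels by 0.45, 0.73 and 0.52, from high to low Camp. They were not applied to these finer steps, so the order at the steps with overlapping intervals is not read. For Clec4e, PyMT levels over the same steps were 53.0, 67.0, 118.5, 213, 283, 419 and 523 CPM, against 48.7, 72.5, 107, 192, 256, 318 and 98.7 CPM in WT. In PyMT the Clec4e level was higher at each lower Camp step, and in WT down to 0.25%, below which WT had 7 UMIs. The PyMT library held 1473 cells below 0.25% Camp and 16 cells at 8% or more.

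**Figure D1:**
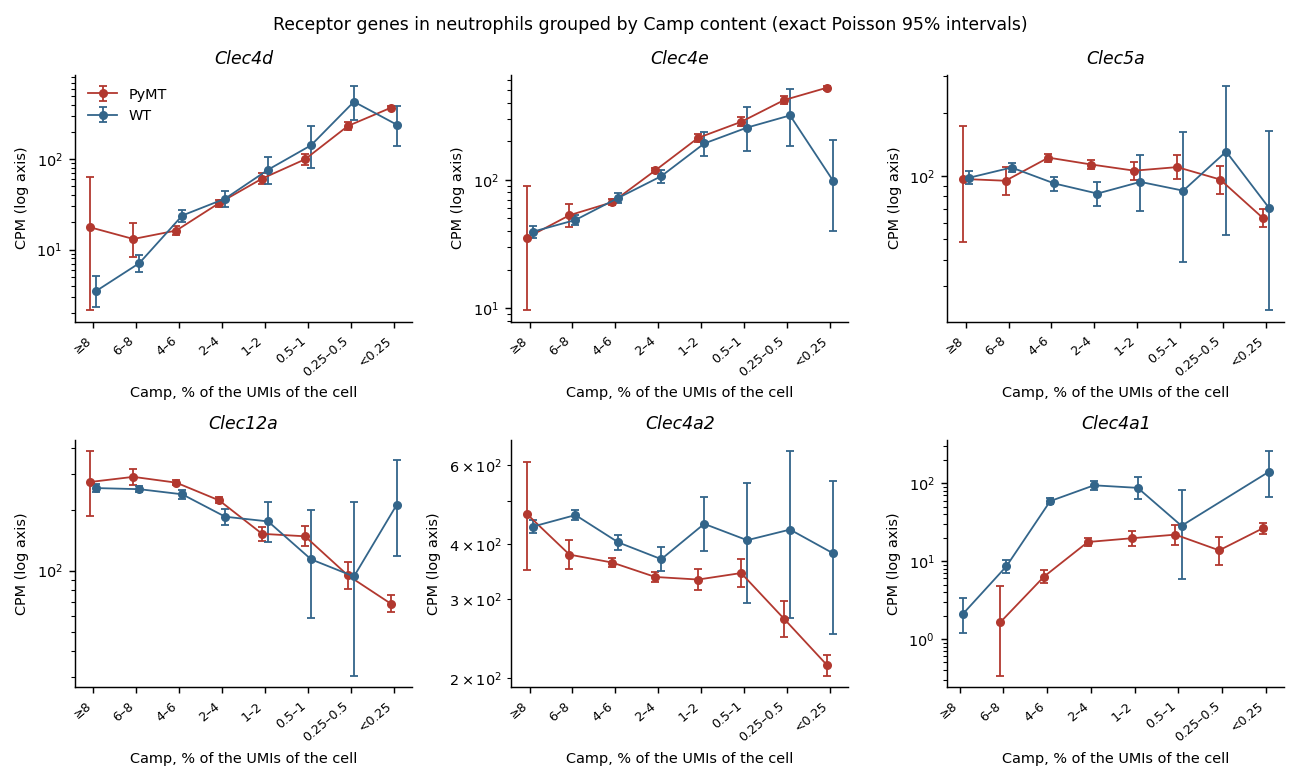
Levels of 6 receptor genes (CPM, log axis) in neutrophils grouped by Camp as a percent of each cell's UMIs, from high (left) to low (right); red points are PyMT, blue points WT, bars are exact Poisson 95% intervals, and groups at 0 UMIs are not drawn. Clec4d and Clec4e climb to the right in both libraries down to 0.25 to 0.5% Camp, below which they climb further in PyMT while the WT points, from 12 cells, are lower; Clec12a declines in PyMT to 68.7 CPM below 0.25% Camp, and Clec5a stays between 63 and 131 CPM.

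**Figure D2:**
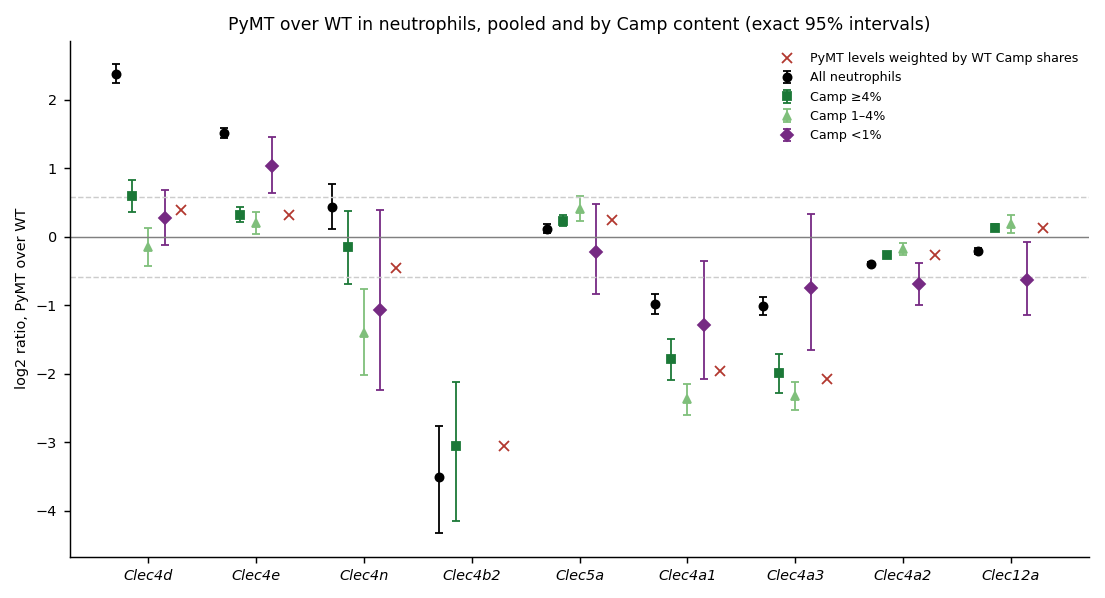
Log2 ratio PyMT over WT for the 9 receptors in all neutrophils (black) and within each Camp level, with exact 95% intervals; red crosses give PyMT levels weighted by the WT distribution over Camp levels, and dashed lines mark 1.5-fold. Clec4d lies at 2.38 over all neutrophils and at 0.39 with WT weights; the small ratios of Clec4a2 and Clec12a change sign under other scalings.

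Within a Camp level the Clec4d ratio between libraries was smaller than over all neutrophils, at 0.60 (0.36 to 0.84) for Camp of 4% or more, -0.15 (-0.42 to 0.13) at 1 to 4% and 0.27 (-0.11 to 0.68) under 1%. With trimmed means these became 1.05, 0.58 and 0.79, against 2.83 over all neutrophils, so that the sign at 1 to 4% rests on the scaling. At 4% or more the levels were 16.0 CPM in PyMT and 10.5 CPM in WT, both under the 26.0 and 19.9 CPM found in B cells of the same libraries. In the B cells with under 1% of S100a8 and S100a9, Clec4d had 0 CPM in PyMT and 8.12 CPM in WT. Whether either B cell level measures free RNA was not tested, so the difference at 4% or more is not settled. When the PyMT levels at the 3 Camp levels were weighted by the WT distribution, Clec4d came to 20.3 CPM and a ratio of 0.39, and Clec4e to 75.8 CPM and 0.32. Clec4e had a larger ratio in cells with Camp under 1%, 1.04 (0.64 to 1.46), against 0.32 and 0.20 at the higher levels. With trimmed means its 3 ratios were 1.55 under 1%, 0.77 at 4% or more and 0.93 at 1 to 4%. The libraries were not matched within the level under 1%, where Camp made up 0.307% of UMIs in PyMT and 0.498% in WT. Below 0.25% lay 1473 PyMT and 12 WT cells, the latter with 7 Clec4e UMIs. At 0.5 to 1% and at 0.25 to 0.5% the Clec4e intervals of the 2 libraries overlapped. On the CPM scale the direction of both genes at 1 to 4% also turned between neutrophils without and with a Csf1r or Ccr2 UMI, a split described below. Without such a UMI the ratio was -0.97 (-1.29 to -0.63) for Clec4d and -0.51 (-0.70 to -0.31) for Clec4e. With one it was 0.87 (0.39 to 1.38) and 0.93 (0.65 to 1.22). Trimmed means raised the ratios of the whole level by 0.73. They were not applied to the cells without or with such a UMI, so the turn is given for CPM only. Under 1% Camp the Clec4e ratio was 0.73 (0.30 to 1.21) without such a UMI and 1.94 (1.01 to 3.07) with one. Cells with Camp under 1% held 20.7% of PyMT neutrophil UMIs but 73.6% of their Clec4d UMIs and 54.1% of their Clec4e UMIs. In WT neutrophils they held 0.756% of all UMIs, 11.6% of the Clec4d UMIs and 2.77% of the Clec4e UMIs.

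Counting receptors within each Camp level gave 1 higher and 3 lower of 9 at 4% or more, where 3.21% of all genes were at least 1.5-fold higher and 41.1% lower. At 1 to 4% none of 8 was higher and 3 were lower, where 5.31% of all genes were higher and 49.2% lower. Under 1%, 1 of 8 was higher and 5 lower, where 18.6% were higher and 30.4% lower. With trimmed means the 3 levels, from high to low Camp, had 3 receptors higher and 3 lower, 3 higher and 3 lower, and 2 higher and 1 lower, where 11.9%, 26.0% and 37.3% of all genes were higher and 18.5%, 16.1% and 13.04% lower. In CPM the 1 receptor higher under 1% was Clec4e, and the 1 at 4% or more was Clec4d, under its B cell level.

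The share of cells with at least 1 UMI followed the levels. In neutrophils with Camp under 1%, 70.7% of PyMT and 42.9% of WT cells had a Clec4d UMI, at median depths of 4058.5 and 3339 UMIs. With every cell reduced at random to 1000 of its UMIs, a depth all cells reached, the shares were 28.7% (26.7 to 30.7) in PyMT and 21.4% (11.6 to 34.4) in WT, and the intervals overlapped. At Camp of 4% or more the thinned shares were 2.1% and 1.19%, close to the 1.76% and 1.32% of B cells. The B cell share was used as a reference for free RNA, a use that was not tested. The unthinned B cell shares were 8.14% in PyMT and 6.58% in WT at median depths of 3420 and 3762.5 UMIs, and the WT neutrophils at 4% or more, with 6.11%, lay below that. Clec4e had thinned shares of 37.9% in PyMT and 21.4% in WT at Camp under 1%, against 3.42% and 1.32% in B cells. Among thinned PyMT cells with Camp under 1%, Clec4e was seen in 42.0% (38.0 to 46.1) of the 590 cells with a Clec4d UMI and in 36.3% (33.8 to 38.8) of the 1468 without one, and those intervals overlapped slightly.

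Immediate-early transcripts (Fos, Jun, Egr1, Ier2 and Atf3), a sign of cell handling, summed to 1986 CPM in PyMT and 1509 CPM in WT neutrophils with Camp under 1%. Over all neutrophils the sums were 993 and 1054 CPM. Their part in the Clec4d and Clec4e levels was not tested.

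In monocytes the same pair was also higher in PyMT, by less. Clec4e had 89.96 CPM in PyMT monocytes and 60.4 CPM in WT monocytes, a ratio of 0.58 (0.36 to 0.80). Clec4d had 41.0 CPM in PyMT monocytes, against 26.2 CPM (21.0 to 32.4) in WT monocytes, a ratio of 0.64 (0.31 to 0.99). The WT level overlapped that of WT B cells, 19.9 CPM (12.99 to 29.1). Clec4d was the 1 receptor of 8 at least 1.5-fold apart in monocytes, where 8.77% of all genes were that much higher and 7.77% that much lower. Transcripts of the 10 neutrophil markers summed to 19772 CPM in PyMT and 12901 CPM in WT monocytes, and their part in this difference was not tested. B cells of the 2 libraries differed in the same way, with Clec4e at 44.9 CPM in PyMT and 16.8 CPM in WT, and with neutrophil marker sums of 20715 and 12967 CPM. Among the 52 PyMT B cells with under 1% of S100a8 and S100a9, Clec4d had 0 UMIs and Clec4e 4, and among the 254 such WT cells each had 9.

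Across classes, each library's Clec4d level was highest in neutrophils with Camp under 1%. In PyMT it was next highest in nonclassical monocytes (61.2 CPM), followed by neutrophils at 1 to 4% (38.3 CPM) and classical monocytes (37.8 CPM), whose intervals overlapped. In WT the 42.4 CPM of neutrophils at 1 to 4% came second and nonclassical monocytes (27.9 CPM), classical monocytes (22.6 CPM) and B cells (19.9 CPM) overlapped one another. For Clec4e the order in PyMT was neutrophils under 1% (455 CPM), 1 to 4% (137 CPM), then classical (85.5 CPM) and nonclassical monocytes (80.6 CPM), which overlapped, neutrophils at 4% or more (65.5 CPM) and B cells (44.9 CPM). In WT it was 222, 119, then nonclassical (64.3 CPM) and classical monocytes (59.7 CPM) and neutrophils at 4% or more (52.4 CPM), which overlapped, and B cells at 16.8 CPM.

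**Figure D3:**
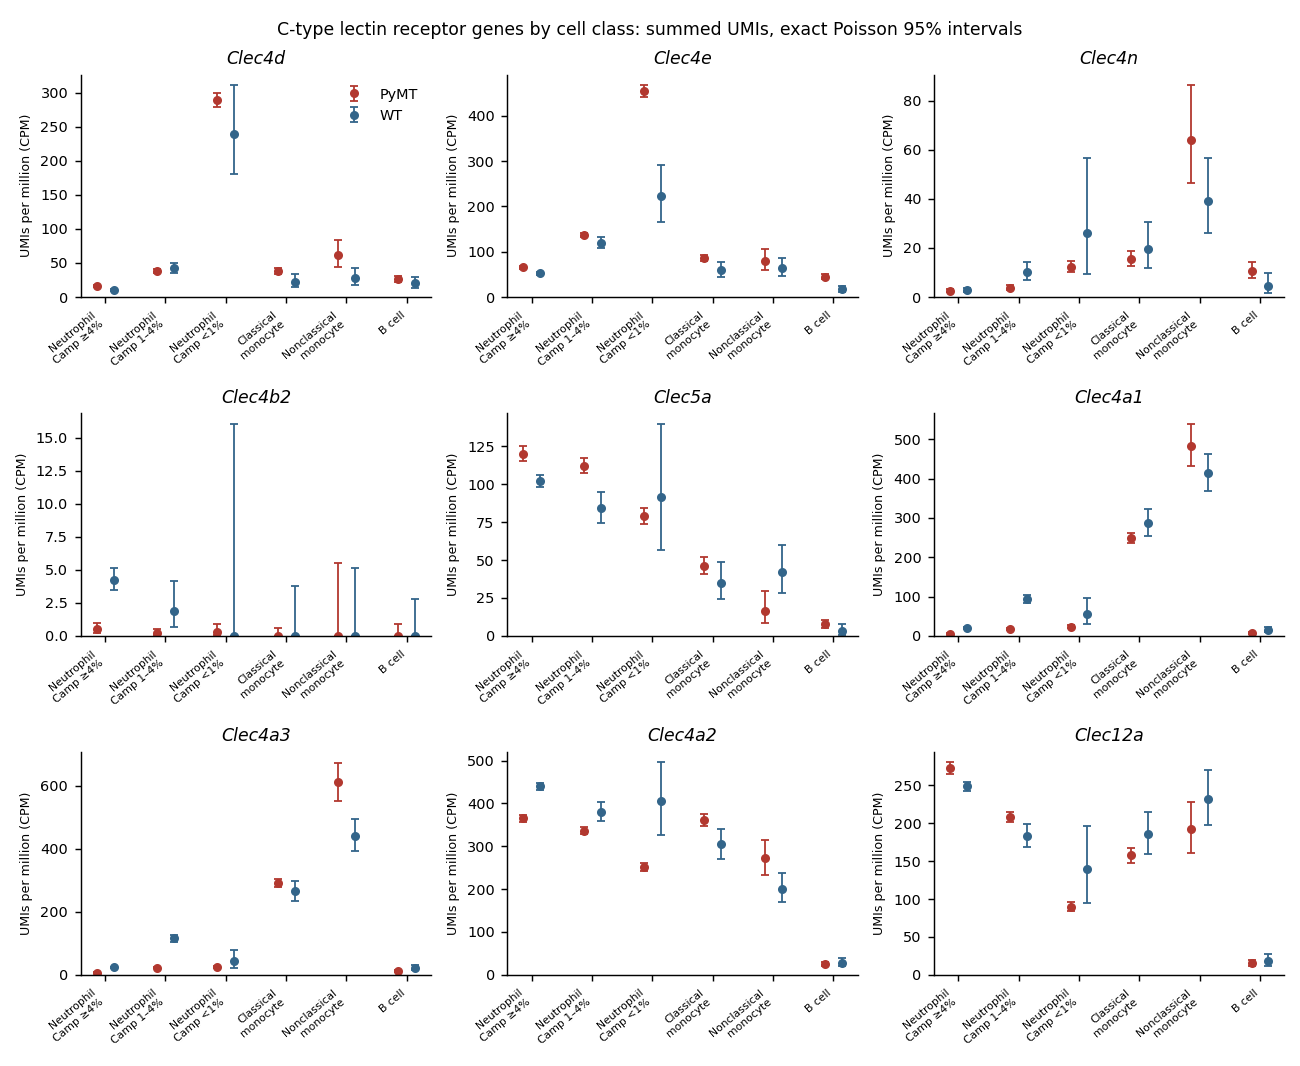
Level of each receptor gene (CPM) in neutrophils of 3 Camp levels, classical and nonclassical monocytes and B cells; red points are PyMT, blue points WT, and bars are exact Poisson 95% intervals. Clec4d and Clec4e peak in neutrophils with Camp under 1%, and Clec4a1 and Clec4a3 in nonclassical monocytes.

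Dectin-2 (Clec4n), which recognises fungal mannans, was a monocyte gene in these sums. It had 23.6 CPM in PyMT monocytes (276 UMIs), against 25.6 CPM in WT monocytes (84 UMIs), a ratio of -0.12. Nonclassical monocytes had the higher levels, 64.2 CPM in PyMT and 39.1 CPM in WT, against 15.5 and 19.5 CPM in classical monocytes; the PyMT to WT ratio in nonclassical cells was 0.71 (-0.01 to 1.46). Neutrophils had 5.11 CPM in PyMT and 3.78 CPM in WT, under the 10.6 CPM of PyMT and 4.59 CPM of WT B cells, so the neutrophil ratio of 0.43 is not read as a difference. Within Camp levels its ratio was -0.15 at 4% or more (0.30 with trimmed means), -1.40 at 1 to 4% and -1.07 (-2.24 to 0.40) under 1%, where WT had 6 UMIs. These signs were not stable: the ratio at 1 to 4% became 1.26 with a 20% limit on S100a8 and S100a9 and 0.49 without the cells holding a Csf1r or Ccr2 UMI, that under 1% became 0.035 with equal weight per cell, and that at 4% or more became 1.22 without the same cells.

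MDL-1 (Clec5a) was a neutrophil gene here, with 108 CPM in PyMT neutrophils and 99.97 CPM in WT neutrophils. The ratio of 0.12 became 0.57 with trimmed means, still short of 1.5-fold. Over the 3 Camp levels it had 119.8, 112 and 78.8 CPM in PyMT, against 101.9, 84.3 and 91.3 CPM in WT. Monocytes had 40.5 CPM in PyMT and 38.4 CPM in WT, under the neutrophil level in each library by log2 1.42 in PyMT and 1.38 in WT. B cells had 7.57 and 3.06 CPM. In PyMT, nonclassical monocytes had 16.4 CPM (11 UMIs) and classical monocytes 46.1 CPM; in WT the 2 subsets had 41.9 and 35.0 CPM with overlapping intervals.

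Clec4b2 was sparse and nearly absent from PyMT. It had 17 UMIs in PyMT neutrophils (0.352 CPM), against 121 UMIs in WT neutrophils (3.98 CPM), a ratio of -3.50 (-4.33 to -2.76). Cells with Camp of 4% or more held 10 of the 17 PyMT UMIs and 115 of the 121 WT UMIs, and their ratio was -3.05. Monocytes and B cells had 0 UMIs in both libraries, which allows up to 0.256 CPM in PyMT and 0.914 CPM in WT monocytes. Among cells of no class there were 7 UMIs in PyMT and 31 in WT.

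The DCIR relatives Clec4a1 and Clec4a3 were monocyte genes. Clec4a1 had 287 CPM in PyMT monocytes and 315 CPM in WT monocytes, a ratio of -0.13. Clec4a3 had 354 CPM in PyMT monocytes, against 337 CPM in WT monocytes, a ratio of 0.07. Monocytes exceeded neutrophils of the same library 20.2-fold in PyMT and 11.2-fold in WT for Clec4a1, and 21.0-fold in PyMT and 9.96-fold in WT for Clec4a3. Counting all receptors, 3 were at least 1.5-fold higher and 3 lower in monocytes of PyMT, and 4 higher and 3 lower in those of WT; of all genes, 70.2% in PyMT and 59.3% in WT were higher and 10.8% and 14.5% lower. With trimmed means 31.3% of all genes in PyMT and 23.2% in WT were higher and 34.4% and 35.1% lower, and 3 receptors were higher and 5 lower in each library. Both genes were higher in nonclassical than in classical monocytes: Clec4a1 had 484 against 249.5 CPM in PyMT and 414 against 288 CPM in WT, and Clec4a3 had 610.4 against 292 CPM in PyMT and 442 against 264 CPM in WT. The Clec4a3 ratio between subsets was 1.07 in PyMT and 0.74 in WT, where 11.5% and 9.4% of all genes were at least 1.5-fold higher and 13.6% and 8.55% lower in nonclassical cells. Between libraries, classical monocytes showed 1 receptor of 8 at least 1.5-fold higher (Clec4d, 0.74, which turned to -0.24 in thinned counts) and nonclassical monocytes 2 of 7 (Clec4d, 1.13, and Clec4n), with none lower; for all genes 11.1% and 8.24% were higher and lower in classical, 10.6% and 7.26% in nonclassical cells.

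In neutrophils the same pair was lower in PyMT. Clec4a1 had 14.2 CPM in PyMT neutrophils (687 UMIs), against 28.0 CPM in WT neutrophils (851 UMIs), a ratio of -0.98 (-1.13 to -0.83). Clec4a3 had 16.8 CPM in PyMT and 33.8 CPM in WT neutrophils, a ratio of -1.01 (-1.14 to -0.87). Within Camp levels the ratios were -1.79, -2.37 and -1.28 for Clec4a1 and -1.99, -2.32 and -0.74 for Clec4a3, from high to low Camp. These UMIs lay mainly in neutrophils that also held monocyte transcripts. Cells with 1 or more UMIs of Csf1r or Ccr2 numbered 1098 of 5489 PyMT and 621 of 3980 WT neutrophils; among cells with Camp of 1 to 4% they made up 21.0% (19.2 to 23.0) in PyMT and 38.5% (34.0 to 43.0) in WT. In those cells Clec4a1 had 43.4 CPM in PyMT and 93.7 CPM in WT, and in all other neutrophils 5.69 CPM in PyMT and 3.44 CPM in WT, under the B cell levels of 7.81 and 14.5 CPM. Clec4a3 had 52.0 CPM in PyMT and 114 CPM in WT with such UMIs, and 6.58 and 3.98 CPM without. Without these cells the direction turned, with ratios of 0.73 for Clec4a1 and 0.72 for Clec4a3 between levels that are both under the B cell level. The 10 monocyte markers summed to 1845 CPM in PyMT and 2654 CPM in WT neutrophils with Camp of 1 to 4%. The highest single marker gave 1604 and 1359 CPM of these sums, and the remainder was much smaller in PyMT. The part of such transcripts in the lower PyMT neutrophil levels of Clec4a1 and Clec4a3 was not tested beyond the Csf1r or Ccr2 split. Cells with a Csf1r or Ccr2 UMI were deeper, with medians of 9121 in PyMT and 11481 in WT, against 8148 and 5360 in the rest.

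**Figure D4:**
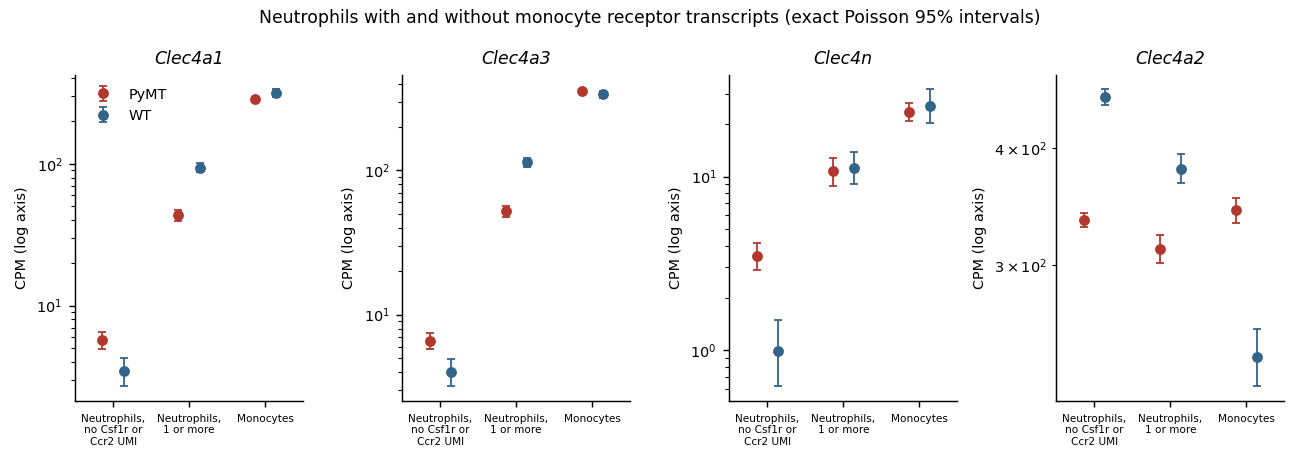
Levels (CPM, log axis) of 4 receptor genes in neutrophils with no Csf1r or Ccr2 UMI, in neutrophils with 1 or more, and in monocytes; red points are PyMT, blue points WT, bars are exact Poisson 95% intervals. Clec4a1 and Clec4a3 are below 7 CPM in the first group of both libraries and near 300 CPM or above in monocytes; the Clec4a2 neutrophil difference changes sign under other scalings.

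DCIR itself (Clec4a2) had another distribution. It was read in both neutrophils and monocytes, with 330.1 CPM in PyMT and 433 CPM in WT neutrophils, a ratio of -0.39 that became 0.06 with trimmed means and 0.04 with the median of ratios. Its log2 ratio of monocytes over neutrophils was 0.06 within PyMT and -0.86 within WT, or -1.28 and -1.88 with trimmed means. In monocytes it was higher in PyMT, at 343 CPM against 239 CPM in WT, a ratio of 0.52 (0.41 to 0.63), short of 1.5-fold. Classical monocytes had 361 CPM in PyMT and 304.5 CPM in WT, nonclassical monocytes 272 and 201 CPM, so that the nonclassical level was the lower one in each library, by log2 0.41 in PyMT and 0.60 in WT. From high to low Camp, PyMT neutrophils had 365, 336 and 251 CPM, against 439.9, 380.1 and 404.5 CPM in WT. B cells had 24.8 CPM in PyMT and 28.3 CPM in WT. After thinning, 26.6% of PyMT and 20.4% of WT monocytes had a Clec4a2 UMI, against 2.22% and 2.96% of B cells. WT monocytes held more dendritic cell transcripts: a list of 6 markers summed to 23.6 CPM in PyMT and 106 CPM in WT monocytes, 6 of 6 detected in both, and 6.42% of PyMT and 14.0% of WT monocytes had a UMI of Flt3, Cd209a, Zbtb46, Xcr1 or Siglech. Their part in the Clec4a2 difference was not tested.

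MICL (Clec12a), an inhibitory receptor for uric acid crystals, was lower in the neutrophils with less Camp in both libraries. In PyMT neutrophils it had 273, 208 and 89.8 CPM from high to low Camp, against 249, 183 and 139 CPM (95.2 to 196.5) in WT neutrophils. Cells with Camp under 1% had a log2 level 1.60 lower than those at 4% or more in PyMT and 0.84 lower in WT. Over all neutrophils the levels were 209.7 CPM in PyMT and 241 CPM in WT, a ratio of -0.20 that became 0.25 with trimmed means and 0.23 with the median of ratios. With the WT Camp distribution the PyMT level was 265 CPM, a ratio of 0.13. Monocytes had 163 CPM in PyMT and 201.5 CPM in WT, a ratio of -0.30, and B cells 14.9 and 18.4 CPM.

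B cells served as a reference level for free RNA, a use that was not tested. Clec5a had 3.06 CPM in WT B cells and 99.97 CPM in WT neutrophils, while Clec4d had 19.9 and 15.6 CPM. In PyMT the values were 7.57 and 108 CPM for Clec5a, and 26.0 and 81.1 CPM for Clec4d. The B cell levels of Clec4d, and of Il1b given below, thus need not be free RNA. In B cells 7 receptors had at least 50 UMIs in the 2 sums. Of these, 2 were at least 1.5-fold higher (Clec4e, 1.42, and Clec4n, 1.21) and 2 lower (Clec4a1, -0.90, and Clec4a3, -1.04) in PyMT. Of all genes in B cells, 12.9% were that much higher and 4.19% that much lower. Over the whole library, 3 receptors of 9 were higher (Clec4d, 2.02, Clec4e, 1.41, and Clec4n, 0.65) and Clec4b2 lower at -3.45, where 9.19% of all genes were higher and 15% lower. Cells of no class had 3 of 8 higher (Clec4d, 1.88, Clec4e, 1.75, and Clec4n, 1.04), where 8.22% were higher and 11.3% lower.

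Across the 12 sums of 2 libraries and 6 classes (neutrophils of 3 Camp levels, monocytes, B cells, all others), Pearson correlations of log2(CPM + 5) describe which genes had like patterns; sums of 1 library share its depth and free RNA. Within the set, Clec4a1 and Clec4a3 were the most alike (0.993), followed by Clec4a2 and Clec12a (0.957), Clec4a2 and Clec5a (0.940), Clec5a and Clec12a (0.900) and Clec4d and Clec4e (0.866). Within PyMT the Clec4d and Clec4e value was 0.94 and within WT 0.81. Among 9060 genes, those nearest to Clec4d were Ube2h (0.963), Ube2b and Ypel3. Those near to Clec4e included Csf3r (0.975), the G-CSF receptor of neutrophils, and Atp6v1g1 (0.971). Clec4n lay nearest to Sirt7 (0.972), Apbb1ip and Hdac5. Clec4b2 lay nearest to Slc6a12 (0.966), Itih5 and Ncam1, and Clec5a to Dstn (0.995), Ccnd3 and Hmgb2. Clec4a1 lay nearest to Sepp1 (0.998), Clec4a3 and Tifab, and Clec4a3 to Ppfia4 (0.996), Tifab and Clec4a1. Clec4a2 lay nearest to Ugp2 (0.993), Ly6c2, a Gr1 antigen gene of classical monocytes, and Leprotl1, and Clec12a to Ethe1 (0.982), Cast and Cyba, an NADPH oxidase subunit.

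Of the 3 adaptors of the activating receptors, Fcer1g and Tyrobp were within 1.5-fold between the libraries in both classes. In neutrophils Fcer1g had 2562 CPM in PyMT and 2241 CPM in WT (ratio 0.19), and Tyrobp 3356 CPM in PyMT and 2899 CPM in WT (ratio 0.21). Hcst, the gene for DAP10, was the 1 adaptor of 3 past 1.5-fold, lower at 208.5 CPM in PyMT against 352 CPM in WT, where 42.6% of all genes were that much lower. Its ratio of -0.76 became -0.30 with trimmed means, short of 1.5-fold, while those of Fcer1g and Tyrobp became 0.65 and 0.66, past it. In monocytes Fcer1g (3019 CPM in PyMT, 2944 CPM in WT) and Tyrobp (4597 and 4623 CPM) had ratios of 0.04 and -0.01. Within each library Tyrobp was higher in neutrophils with Camp under 1% than in those at 4% or more, by log2 1.01 in PyMT and 0.76 in WT; with trimmed means no adaptor was 1.5-fold apart in WT.

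Of the 17 genes of the Syk route, 16 had enough UMIs in neutrophils, where 2 were at least 1.5-fold higher, 1 was lower and the median was -0.05, against 7.11% and 42.6% of all genes and a median of -0.47. With trimmed means 6 were higher and 1 lower, against 16.7% and 18.3% of all genes. The higher ones included the Src-family kinase Lyn (199 CPM in PyMT, 118.5 CPM in WT), and the lower one was Nfatc2 (0.869 and 2.11 CPM). Syk had 51.7 CPM in PyMT and 59.4 CPM in WT, a ratio of -0.20 that turns positive with trimmed means, and Card9 15.4 CPM in PyMT and 11.0 CPM in WT, a ratio of 0.49. By Camp level, from high to low, the Lyn ratio was 0.39, -0.06 and 0.75 and that of Syk -0.60, -0.84 and 0.52. In monocytes 1 of 15 was higher, Card9 (20.7 CPM in PyMT, 12.8 CPM in WT), and 2 were lower, Nfatc2 (-1.08) and Malt1 (12.6 and 22.0 CPM), against 8.77% and 7.77% of all genes, while Syk was at 69.0 CPM in PyMT and 94.5 CPM in WT and Prkcd at 194 and 288 CPM, short of 1.5-fold.

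The inhibitory phosphatases went 2 lower of 4 in neutrophils, Ptpn11 (8.54 CPM in PyMT, 17.5 CPM in WT, ratio -1.03) and Inpp5d (19.2 CPM in PyMT, 31.5 CPM in WT, ratio -0.71), where 42.6% of all genes were lower, with a median of -0.38 against -0.47 for all genes. With trimmed means the 2 ratios were -0.58 and -0.26, both short of 1.5-fold, and 1 phosphatase was higher. Ptpn6, the gene of SHP-1, had 331 CPM in PyMT and 262 CPM in WT neutrophils, a ratio of 0.34. In monocytes none of the 4 passed 1.5-fold, with Ptpn6 at 392 CPM in PyMT and 339.9 CPM in WT.

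Among 15 cytokine and response genes that CARD9 signalling is known to induce, and that other inflammatory pathways induce too, 8 had enough UMIs in neutrophils, 3 of them higher and 3 lower (median -0.40), against 7.11% and 42.6% of all genes. With trimmed means 3 were higher and 1 lower, against 16.7% and 18.3%. Il1b stood apart at 466 CPM in PyMT and 27.7 CPM in WT neutrophils, a ratio of 4.07. B cells of the same libraries had 317 CPM in PyMT and 105 CPM in WT, above the WT neutrophil level and above both libraries' levels at Camp of 4% or more (142 and 24.5 CPM) and at 1 to 4% (201 and 49.2 CPM), so no difference is read there. Under 1% Camp it had 1596 CPM in PyMT and 122 CPM in WT, a ratio of 3.71, with the WT level from 28 UMIs close to that of WT B cells. Cxcl2, a neutrophil chemoattractant, had 135 CPM in PyMT and 62.5 CPM in WT, a ratio of 1.11, but -0.35, -0.02 and 0.55 within the Camp levels. The inflammasome sensor Nlrp3 had 8.61 CPM in PyMT and 4.05 CPM in WT neutrophils. Tnf was lower, at 16.0 CPM in PyMT and 33.7 CPM in WT. Within PyMT, 7 of 8 genes were higher and 1 lower in neutrophils with Camp under 1% than at 4% or more (median 2.37), where 26.7% and 20.7% of all genes were. Within WT, 6 of 8 were higher and 1 lower (median 1.5), or 4 and 1 with trimmed means, where 25.6% and 16.2% of all genes were in CPM. In monocytes 1 of 7 was higher, Il1b (233 CPM in PyMT, 94.8 CPM in WT), and 5 were lower, among them Ccl3 (34.7 and 89.9 CPM), Ccl4 (5.38 and 14.6 CPM) and Tnf (7.34 and 12.2 CPM), against 8.77% and 7.77% of all genes. Both Il1b levels lay under those of B cells, so no difference is read there. WT B cells had 80.3 CPM of Ccl4, above both monocyte levels. The 5 NK cell markers summed to 179 CPM in WT B cells and 6.40 CPM in WT monocytes. The B cell level therefore does not serve as a measure of free RNA for Ccl4, and its monocyte difference is given without that check.

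**Figure D5:**
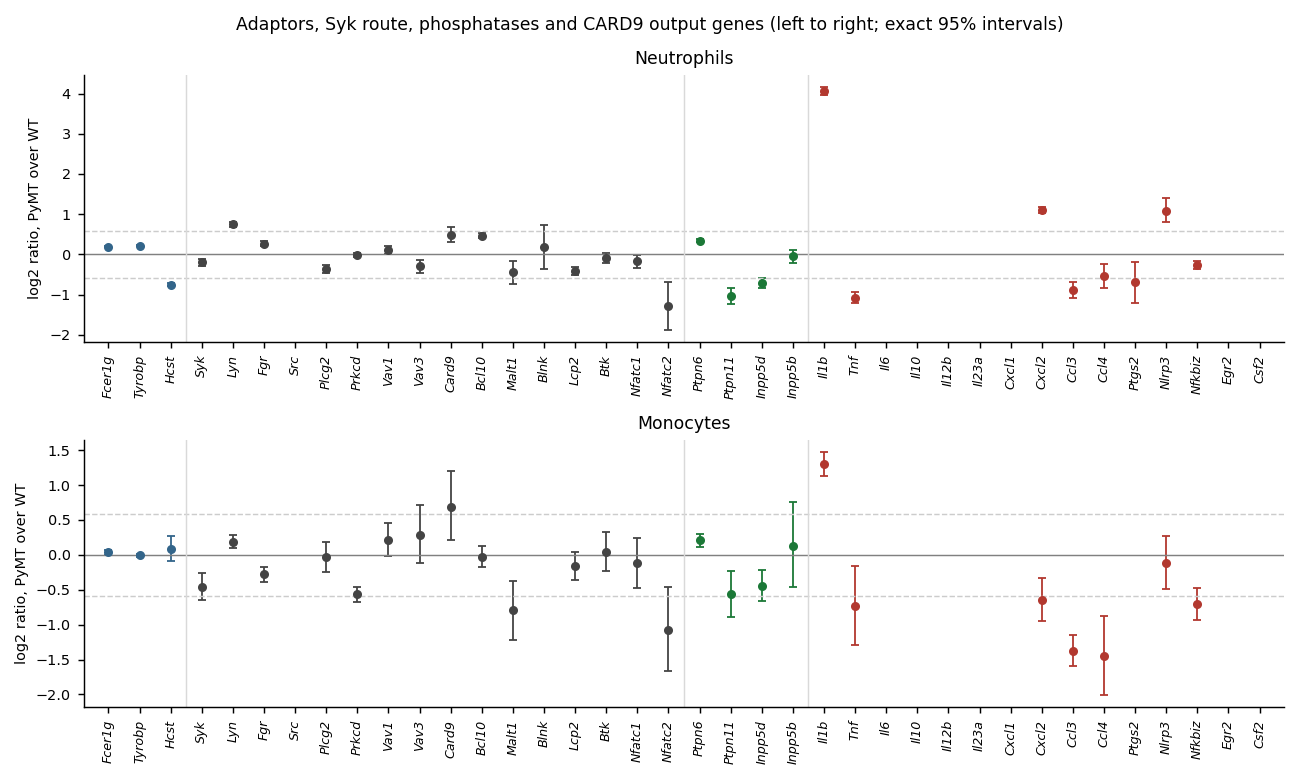
Log2 ratio PyMT over WT for named genes of the receptors' pathway with at least 50 UMIs in the 2 sums, in neutrophils (top) and monocytes (bottom): adaptors (blue), Syk route (grey), inhibitory phosphatases (green) and CARD9 output genes (red), with exact 95% intervals and dashed lines at 1.5-fold. Il1b is the highest point in both panels, at 4.07 and 1.30, the second between levels under those of B cells, and Fcer1g and Tyrobp lie within 0.21 of 0 in both.

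Of 32 other C-type lectin genes, 13 had enough UMIs in neutrophils, of which none was at least 1.5-fold higher and 8 were lower, with a median of -0.88, against 42.6% of all genes lower and a median of -0.47. With trimmed means 1 was higher and 5 lower, where 18.3% of all genes were lower. The 4 with the largest ratios were Cd209a (0.372 CPM in PyMT, 4.41 CPM in WT), Clec10a (2.03 and 8.06 CPM), Olr1 (4.84 and 18.4 CPM) and Klrk1 (0.559 and 2.11 CPM), of which Cd209a and Klrk1 lay under the B cell levels of both libraries. WT B cells also held NK cell transcripts, as given above, so their Klrk1 level need not be free RNA. In monocytes 3 of 11 passed in the higher direction and 5 in the lower (median -0.58), against 8.77% and 7.77% of all genes. The lower ones included Cd209a (7.60 CPM in PyMT, 75.3 CPM in WT), Cd209d (2.48 CPM in PyMT, 24.1 CPM in WT) and Klrk1 (5.38 CPM in PyMT, 30.5 CPM in WT). Cd209a is itself 1 of the 6 dendritic markers whose sums are given above, and the part of such cells in these values was not tested.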

How the data were processed

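Per the labels' protocols, CD11b+ Gr1+ splenocytes were sorted, loaded on the 10x Genomics Chromium platform with 3′ version 2 reagents and sequenced. Cell Ranger 2.1.0 and the mm10 build are named in the submitters' processing notes. The deposited files hold raw UMI counts per gene and cell. Samples were grouped by title.

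UMIs were summed per library and class, scaled to the class total (CPM) and given with exact Poisson 95% intervals; ratios have exact conditional intervals and shares Clopper-Pearson intervals. A gene counted as higher or lower at 1.5-fold among genes with at least 50 UMIs in the 2 sums. A sum of 0 was set to a floor of 3 counts, which gives a bound. Cells meeting both the monocyte and the B cell rule (71 in each library) belonged to no class. Classical monocytes had at least 3 Ly6c2 UMIs and none of Ace or Treml4, nonclassical ones at least 1 of Ace or Treml4 and at most 2 of Ly6c2; cells with dendritic markers were left out of both. No doublets were removed; an alternative left out cells above the 95th percentile of UMIs.

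Members and lists were chosen with earlier results of these data known. Named are all members, at most 4 genes of each list with the largest ratios plus Fcer1g, Tyrobp, Syk, Card9 and Ptpn6, and the 3 genes most alike to each member; some genes under this rule are not reported here. The finer Camp steps, the cycling split and the pathway genes given within Camp levels and under other scalings were chosen after values were seen. The calculation was tested on simulated data. Python 3.11.15 (numpy 2.4.6, scipy 1.17.1, pandas 2.3.3, matplotlib 3.10.9) and R 4.3.3 with edgeR 4.0.16, for its trimmed mean of M-values only, were used.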

Additional observations from a re-analysis of the deposited data

Results flagged for a closer look

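Clec4a2 had opposite directions in 2 classes, with a log2 ratio PyMT over WT of -0.39 in neutrophils and 0.52 in monocytes. The neutrophil ratio became 0.06 with trimmed means and 0.04 with the median of ratios, so the opposition rests on the CPM scale. Clec12a had ratios of 0.13 in neutrophils with Camp of 4% or more and 0.19 at 1 to 4%, against -0.63 (-1.14 to -0.08) under 1%, where the WT sum held 32 UMIs. The last ratio became 0.49 in thinned counts and -0.12 with trimmed means, and over all neutrophils its direction also changed with the scaling. These differences between classes were not tested, since each group is 1 library.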

How the results depend on the processing

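No paired analysis was possible because each group is 1 library and the groups share only replicate number 1. Leaving out a replicate was not possible for the same reason. The receptor values were recomputed under the listed alternatives, and the partner, output and other lectin genes under the 2 other scalings. Of 1190 receptor ratios under the alternatives, 74 had the other sign; 18 of these belonged to ratios of at least 1.5-fold and follow here, and the cause was not tested. Under trimmed means or the median of ratios, WT monocytes over neutrophils for Clec4d turned to -0.27 and -0.22, and to -0.068 without the 50 most abundant genes. In thinned counts it was -0.18, Clec4d in classical monocytes -0.24, nonclassical over classical Clec4d in PyMT -0.22, and under 1% Camp Clec4a1 0.12 and Clec12a 0.49. In neutrophils without Csf1r or Ccr2 UMIs, Clec4a1 was 0.73 and Clec4a3 0.72 (0.31 and 0.44 at Camp of 4% or more), and Clec4n 0.49 at 1 to 4%. With S100a8 and S100a9 limits of 20% and 2%, Clec4n was 1.26 at 1 to 4%, Clec4a3 1.04 under 1%, and WT Clec4a3 under 1% over 4% or more -1.29. Clec4n was 0.035 under 1% with equal weight per cell, and -0.074 in B cells when cells meeting both rules were counted.

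The number of receptors at least 1.5-fold apart changed as follows. In neutrophils 5 became 2 (thinned) and 3 (WT Camp weights). At 1 to 4% Camp 3 became 6 (trimmed means, median of ratios, without the 50 most abundant genes) and 1 (no Csf1r or Ccr2 UMI). Under 1% 6 became 3 (trimmed means; 20% limit; fold of 2) and 2 (thinned; no Csf1r or Ccr2 UMI). In monocytes 1 became 2 (trimmed means, equal weight, no dendritic markers, without the deepest cells, both-rule cells) and 0 (2% limit; fold of 2). In B cells 4 became 0 (thinned; S100a8 and S100a9 under 1%) and 1 (without the deepest cells; 200 UMIs). In WT, Camp under 1% over 4% or more went to 3 in place of 6 (no Csf1r or Ccr2 UMI), and monocytes over neutrophils to 4 in place of 7 (thinned). The WT neutrophils with Camp under 1% were only 56 cells, and the limits set by depth were not ranked between classes.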

Other observations

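Clec4b2 was also read by cell cycle state, a split chosen after its values were seen. Neutrophils with 2 or more UMIs of Mki67, Top2a and Birc5, genes of dividing cells, numbered 298 in PyMT and 438 in WT. In them Clec4b2 had 0.794 CPM in PyMT (4 UMIs) and 9.05 CPM in WT (67 UMIs). In the other neutrophils it had 0.30 CPM in PyMT (13 UMIs) and 2.35 CPM in WT (54 UMIs), so the PyMT level was lower in both.

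Clec4n, like Clec4a1 and Clec4a3, was higher in the neutrophils with a Csf1r or Ccr2 UMI, at 10.7 CPM in PyMT and 11.2 CPM in WT, against 3.48 and 0.995 CPM in the rest. The PyMT over WT ratio in the rest was 1.80 (1.15 to 2.53), between levels that lie under those of B cells in the same libraries. Clec4a2 showed the other order, with 312 CPM in PyMT and 380 CPM in WT among cells with such a UMI and 335 and 453 CPM among the rest.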
